A study of Mus musculus with 10 samples.

Results

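Yap1, Wwtr1 (the gene of the Taz protein), Tead1, Tead2, Tead3, Tead4, Vgll3 and Vgll4 encode the coactivators of Hippo signaling, the transcription factors that carry them to DNA and a pair of cofactors that bind the same factors. These 8 genes were matched by symbol among the 48709 genes of each deposited table, and their transcripts were followed through 10 libraries of supporting cells from the murine utricle. The cells carried the Lfng-EGFP reporter and were sorted as green cells by fluorescence-activated cell sorting from cultured utricles of animals labelled P21, so that the gate rests on the activity of Lfng. Cultures received 10 µM TRULI, an inhibitor of the Lats kinases, or its solvent DMSO at 0.1% for 5 days, and some were then kept for 5 further days without the compound. By the sample labels there were 3 libraries of DMSO at 5 days (DMSO_d5), 3 of TRULI at 5 days (TRULI_d5), 2 of DMSO after withdrawal (DMSO_d10) and 2 of TRULI after withdrawal (TRULI_d10). How many animals were pooled in a library is not given in the sources used here, so that p-values measure only the spread between these libraries.

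The condition in a sample's label and the condition in the name of its deposited table differed for 4 of the 10 libraries. TRULI_d5 replicates 1 and 2 were deposited as DMSO_d10 replicates 1 and 2. DMSO_d10 replicates 1 and 2 were deposited as TRULI_d5 replicates 2 and 3, and TRULI_d5 replicate 3 was deposited as TRULI_d5 replicate 1. DMSO_d5 and TRULI_d10 hold the same libraries either way. Each comparison is therefore given first by label and then by deposited name, and a library is called by its label unless stated. How many of all genes had groups without overlap was not counted for any comparison. A statement that groups did not overlap thus describes the named gene only. The tables hold 2463872 to 6255149 counts, and 3 counts in a library correspond to 0.471 to 1.20 CPM (counts scaled to the size of the library), which covers counting error only. The mitochondrial ribosomal RNA mt-Rnr2 took 1.45% to 2.53% of the counts in TRULI_d5 replicates 1 and 2 and both TRULI_d10 libraries, and 13.0% to 26.4% in the other 6. Lfng was at 21.2 to 100.4 CPM in those 4 libraries and at 291 to 564 CPM in the other 6. All 10 supporting-cell markers passed 3 counts in every library, with summed levels of 4513 to 13775 CPM. Summed hair-cell markers ranged from 47.5 to 906 CPM, Schwann-cell or glial markers from 192 to 1048 CPM, melanocyte markers from 0.360 to 14.1 CPM, and macrophage and endothelial markers were at or under 18.1 and 2.96 CPM. The 6 skeletal-muscle markers summed to 14.5 to 90.8 CPM in the 4 libraries with low mt-Rnr2, where Myod1 was the only one over 3 counts, and to 0 to 1.12 CPM in the other 6. The 10 proliferation genes summed to 176, 599 and 402 CPM in TRULI_d5 replicate 3 and DMSO_d10 replicates 1 and 2, the libraries deposited as TRULI_d5, and to 43.8 to 98.2 CPM in the other 7. Mki67, a marker of dividing cells, was at 26.9, 127 and 56.4 CPM in the same 3 libraries and at or under 1.65 CPM in the other 7. The Yap target Ccn2 was at 714, 490 and 482 CPM in these 3 libraries and at or under 15.6 CPM in the other 7. The paper reports that cell-cycle genes and direct Yap targets rose under TRULI and did not differ from controls after withdrawal. By deposited name, all 3 libraries with high values had TRULI for 5 days. By label only TRULI_d5 replicate 3 did, DMSO_d10 replicates 1 and 2 were controls, and TRULI_d5 replicates 1 and 2 had low values. No library was grouped by these values, and which grouping is right was not tested. In bulk samples, fewer cells of a type and less RNA per cell cannot be told apart.

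Yap and Taz carry no DNA-binding domain of their own. When the Lats kinases phosphorylate them they are held in the cytoplasm or degraded, and when that phosphorylation is blocked they enter the nucleus and join Tead factors at target genes such as Ccn2 and Ccn1. Vgll4 binds Tead factors and competes with Yap, whereas Vgll3 binds them through a related domain. Because this control acts on the proteins, transcript levels do not report the activity of Yap or Taz. In the utricle, an organ of balance in the inner ear, supporting cells surround the sensory hair cells and largely stop dividing after birth.

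Tead factors recognize the letters GGAATG, and the 250 bases before the gene starts were searched for them on either strand, as GGAATG or its complement CATTCC, in RefSeq on GRCm38.p6. Of the 8 genes, 6 had a start in the table and 5 of these had a match before at least 1 start, at 7 of their 9 starts together. The same search matched 12.6% of the 32851 starts of all genes. That share is per start, and none was taken per gene. The windows of the Wwtr1 starts overlap and hold the same match, and Tead3 has several starts, so the 9 starts are not independent. The upstream stretches of both coactivators are shown, together with that of Vgll3, whose transcript was near 0 in one set of libraries and present in another. Capitals mark the match, and a match is a description of letters, not a measured site.
Yap1, chr9:8004597-8004846, minus strand: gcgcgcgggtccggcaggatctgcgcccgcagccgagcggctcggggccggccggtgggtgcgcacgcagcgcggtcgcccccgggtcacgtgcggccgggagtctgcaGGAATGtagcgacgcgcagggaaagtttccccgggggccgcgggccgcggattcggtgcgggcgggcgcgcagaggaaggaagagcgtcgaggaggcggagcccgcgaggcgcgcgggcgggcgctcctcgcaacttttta
Wwtr1, chr3:57575911-57576160, minus strand: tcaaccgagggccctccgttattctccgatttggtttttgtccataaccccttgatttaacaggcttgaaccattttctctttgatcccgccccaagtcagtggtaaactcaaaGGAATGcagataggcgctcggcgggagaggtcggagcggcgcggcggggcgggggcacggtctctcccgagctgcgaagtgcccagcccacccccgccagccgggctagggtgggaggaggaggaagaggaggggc
Vgll3, chr16:65814939-65815188, plus strand: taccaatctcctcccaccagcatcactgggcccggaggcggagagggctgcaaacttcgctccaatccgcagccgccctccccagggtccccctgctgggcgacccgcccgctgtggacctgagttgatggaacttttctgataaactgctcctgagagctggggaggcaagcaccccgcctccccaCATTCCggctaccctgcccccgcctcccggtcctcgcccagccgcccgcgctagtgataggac
The match ends 135 bases before the start of Yap1, 130 bases before the outermost start of Wwtr1 and, on the opposite strand, 57 bases before that of Vgll3. Vgll4 had a match 76 bases before its start. Tead2 had none in this window.

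Per length, the coactivators and Vgll4 were the most abundant of these transcripts, and Tead1 was the leading Tead. On the scale of CPM per kilobase of effective length, which allows genes to be compared, the means over 10 libraries were 42.3 for Yap1, 37.6 for Wwtr1, 36.4 for Vgll4 and 13.6 for Tead1. Tead2, Tead4, Tead3 and Vgll3 followed at 4.81, 4.51, 1.82 and 0.95. The order of the first 3 was not fixed: Yap1 was the highest in 4 libraries, Wwtr1 in 3 and Vgll4 in the other 3, and their ranges of 27.2 to 70.6, 16.8 to 75.3 and 20.1 to 61.0 overlapped. Vgll4 stood above Tead1 in all 10 libraries, and Tead1 was the highest of the Tead genes in 9. Tead2, Tead3 and Tead4 overlapped one another throughout. The other Vgll genes, Vgll1 and Vgll2, had 0 counts in all 10 libraries.

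**Figure D1:**
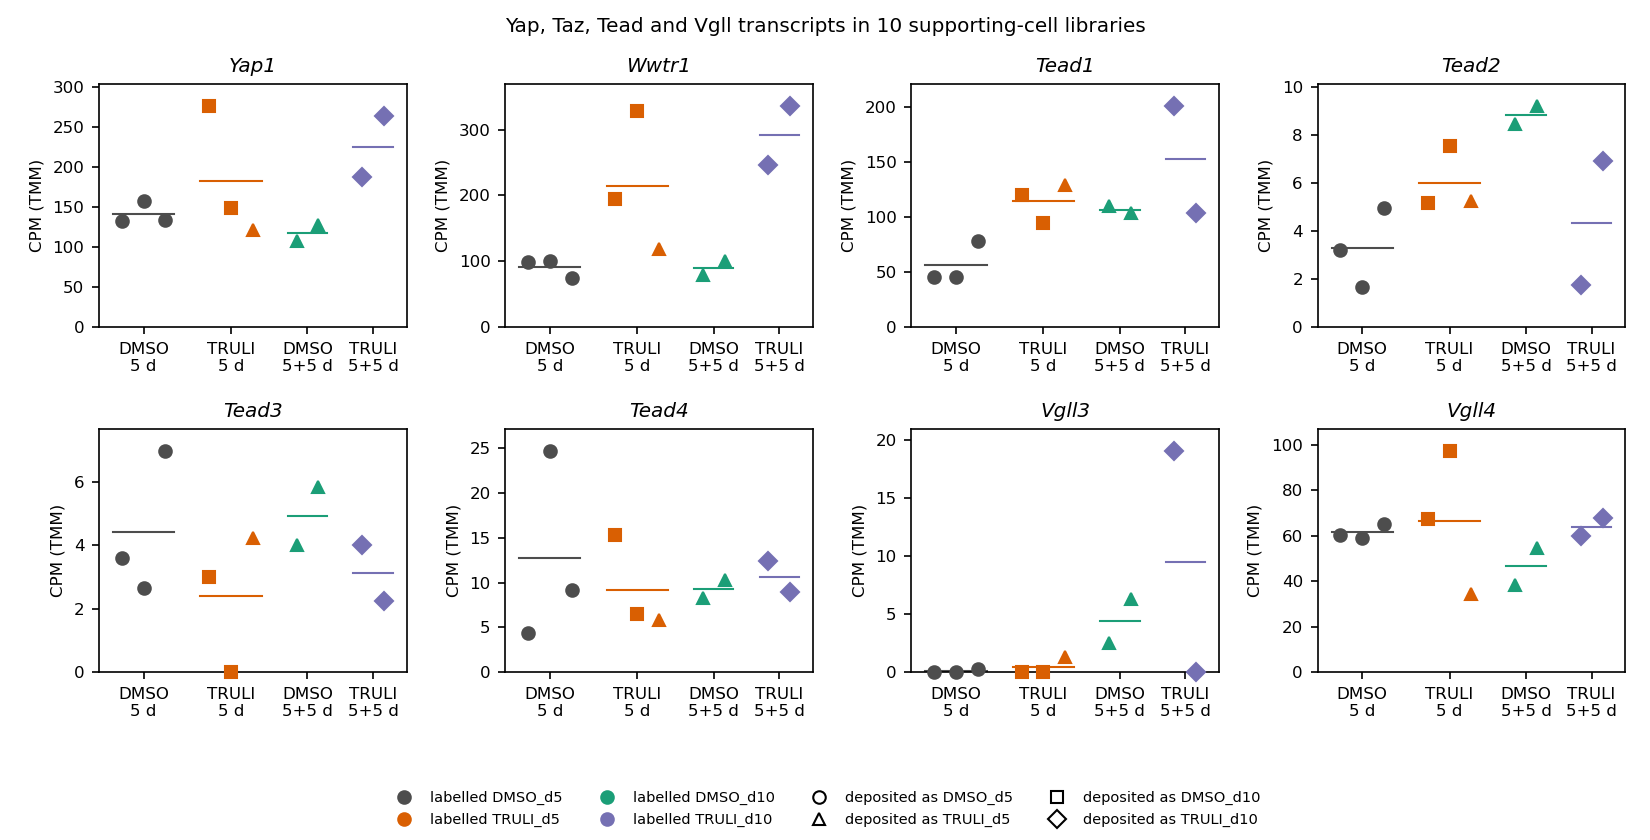
Level of each of the 8 genes (vertical axis, CPM with TMM scaling, linear from 0) in the 10 libraries (points), by labelled group along the horizontal axis (5 d, 5 days; 5+5 d, after withdrawal). Color gives the label, shape the deposited name and lines the labelled group means; Wwtr1 lies at 195 to 336 CPM in 4 libraries and at 74.8 to 118 CPM in the other 6.

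Does the transcript of either coactivator move during exposure to TRULI? Yap1 was at 132, 158 and 134 CPM in DMSO_d5 and at 276, 149 and 121 CPM in TRULI_d5. The groups overlapped, and 1 TRULI library stood far above the rest. The log2 fold change was 0.38 ± 0.38 (SE, n = 3 and 3, adjusted p = 0.642, edgeR's quasi-likelihood test). With deposited names the TRULI libraries were at 121, 107 and 127 CPM, all under the DMSO libraries, and the log2 fold change was -0.23 ± 0.20 (adjusted p = 0.619). The direction for Yap1 thus depended on the grouping, and neither value passed the threshold of 0.05.

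Wwtr1 was at 99.0, 99.8 and 74.8 CPM in DMSO_d5 and at 195, 328 and 118 CPM in TRULI_d5, and the groups did not overlap. The log2 fold change was 1.25 ± 0.42 (adjusted p = 0.332). Among the alternatives run by label it passed only without TRULI_d5 replicate 3, at 1.51 ± 0.32 (adjusted p = 0.0169). In the other alternatives with groups by label the adjusted p ran from 0.0867 to 0.770. By deposited name Wwtr1 was at 118, 79.8 and 99.9 CPM in the TRULI libraries, which overlapped the controls, and the log2 fold change was 0.15 ± 0.23 (adjusted p = 0.814).

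Of the 8 genes, 7 were tested at 5 days by either grouping, Vgll3 being filtered for low counts, and 0 of 7 passed. By label, 2 of them, Wwtr1 and Tead1, had an unadjusted p under 0.05, and DESeq2 called 0. Over all genes 0.00903% of 11071 were called by label, 13.7% had an unadjusted p under 0.05 and DESeq2 called 2.3%. By deposited name 2 genes, Tead1 and Tead2, had an unadjusted p under 0.05, and DESeq2 called 1, Tead1. Over all genes 3.28% of 11529 were called in that grouping, 16.4% had an unadjusted p under 0.05 and DESeq2 called 6.15%.

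After withdrawal the coactivators differed most by label. Wwtr1 was at 79.8 and 99.9 CPM in DMSO_d10 and at 247 and 336 CPM in TRULI_d10. The groups lay far apart, with a log2 fold change of 1.70 ± 0.36 (n = 2 and 2), and the adjusted p of 0.0571 missed the threshold. The call was reached with DESeq2, without the filter on low counts, and without either TRULI_d10 replicate 1 (1.88 ± 0.43) or replicate 2 (1.44 ± 0.42); a group then holds 1 library, assumed to vary like the others. The adjusted p was 0.422 without DMSO_d10 replicate 1, 0.252 without DMSO_d10 replicate 2 and 0.176 with all 10 libraries in one fit. Yap1 was at 107 and 127 CPM in DMSO_d10 and at 187 and 263 CPM in TRULI_d10, again without overlap, and the log2 fold change was 0.95 ± 0.36 (adjusted p = 0.156). Without TRULI_d10 replicate 1 it was 1.15 ± 0.43 and passed (adjusted p = 0.0369), whereas without TRULI_d10 replicate 2 it was 0.67 ± 0.43 (adjusted p = 0.286). The adjusted p was 0.679 and 0.495 without DMSO_d10 replicates 1 and 2, and 0.105 in DESeq2.

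By deposited name this separation was absent. The control libraries were then at 195 and 328 CPM for Wwtr1 and 276 and 149 CPM for Yap1, and overlapped the TRULI libraries for both genes. The log2 fold change was 0.16 ± 0.41 for Wwtr1 and 0.10 ± 0.43 for Yap1 (adjusted p = 0.9998 for both). Of the genes tested after withdrawal, 0 of 8 passed by label, with 2 at an unadjusted p under 0.05 and 1 called by DESeq2 (Wwtr1). Over all 12242 genes 2.07% were called, 24.5% had an unadjusted p under 0.05 and DESeq2 called 12%. By deposited name 0 of 7 passed, with 0 at an unadjusted p under 0.05 and 0 called by DESeq2, against 0% of all 11568 genes (4.6% at an unadjusted p under 0.05, and 0.424% called by DESeq2). In the labelled comparison both TRULI libraries have low mt-Rnr2 and low Lfng and both DMSO libraries have high values, so that treatment and this split cannot be told apart there.

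Across the days the grouping mattered in the opposite way. Between DMSO_d10 and DMSO_d5 by label, Wwtr1 was at 79.8 and 99.9 CPM against 99.0, 99.8 and 74.8 CPM, and the log2 fold change was -0.01 ± 0.26 (adjusted p = 0.997). Yap1 gave -0.26 ± 0.25 (adjusted p = 0.681). Grouped by deposited name, the later controls were at 195 and 328 CPM for Wwtr1, which rose by 1.51 ± 0.32 on the log2 scale, or 2.86-fold (adjusted p = 0.0169). This call was lost without any 1 of the 3 DMSO_d5 libraries (adjusted p = 0.0567, 0.0821 and 0.0613 without replicates 1, 2 and 3). Yap1 gave 0.58 ± 0.32 (adjusted p = 0.218).

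Between TRULI_d10 and TRULI_d5 by label, Wwtr1 gave 0.45 ± 0.54 and Yap1 0.32 ± 0.52 (adjusted p = 0.999 for both), and the libraries overlapped. By deposited name Wwtr1 rose by 1.58 ± 0.30, or 2.98-fold (adjusted p = 0.0190). Without the libraries named TRULI_d5 replicate 1 or 2 the adjusted p was 0.0571 and 0.0968. Yap1 gave 0.95 ± 0.28 with an adjusted p of 0.0567, which passed in DESeq2, without the filter, with all 10 libraries in one fit and without TRULI_d10 replicate 1, and was 0.0546 to 0.215 in the other alternatives. By deposited name all day-10 libraries have low mt-Rnr2 and all day-5 libraries high mt-Rnr2, so that time and this split cannot be told apart either.

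Between the days, 0 of 7 genes passed by label in DMSO, with 2 at an unadjusted p under 0.05 (Tead1 and Tead2), and 0 of 7 in TRULI, with 0 at an unadjusted p under 0.05. DESeq2 called 0 in each. The shares called over all genes were 2.44% in DMSO (14.9% at an unadjusted p under 0.05, and 4.52% by DESeq2) and 0% in TRULI (3.25% at an unadjusted p under 0.05, and 0.0326% by DESeq2). By deposited name Wwtr1 alone passed among 7 genes in DMSO and among 8 in TRULI, where 19.3% and 14% of all genes were called (26.3% and 23.8% by DESeq2). The comparisons share libraries and are not independent of one another. Whether the difference made by TRULI itself changed between the days was tested over all 10 libraries. None of the 8 genes passed by either grouping, with 0 at an unadjusted p under 0.05 and 0 called by DESeq2, and adjusted p ran from 0.822 to 0.9999 by label and from 0.612 to 0.998 by deposited name. That test called 0% of 12841 genes by label and 0% by deposited name (6.81% and 9.48% at an unadjusted p under 0.05, and 0.35% and 0.67% called by DESeq2).

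**Figure D2:**
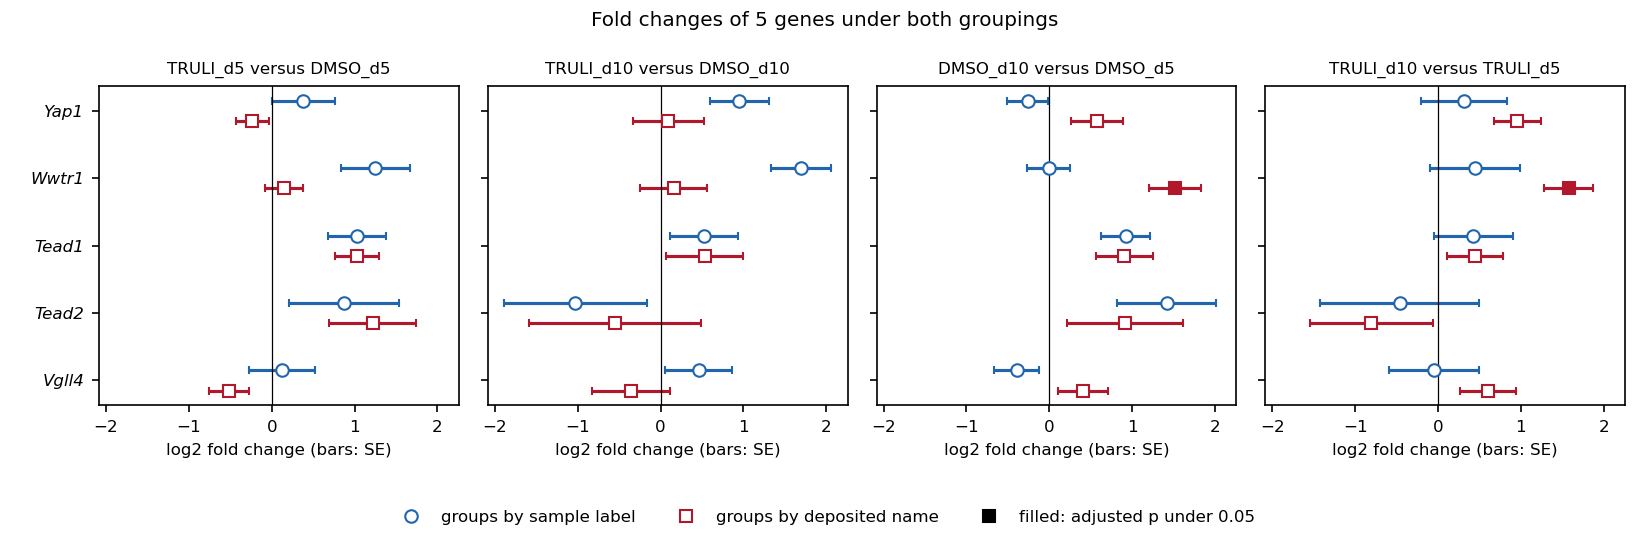
Log2 fold change (horizontal axis; bars are SE) of 5 genes (vertical axis) in 4 comparisons, with groups by sample label (circles) and by deposited name (squares); filled symbols passed an adjusted p of 0.05. Wwtr1 at 5 days stands at 1.25 by label and 0.15 by name, whereas Tead1 stands at 1.03 under both.

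**Figure D3:**
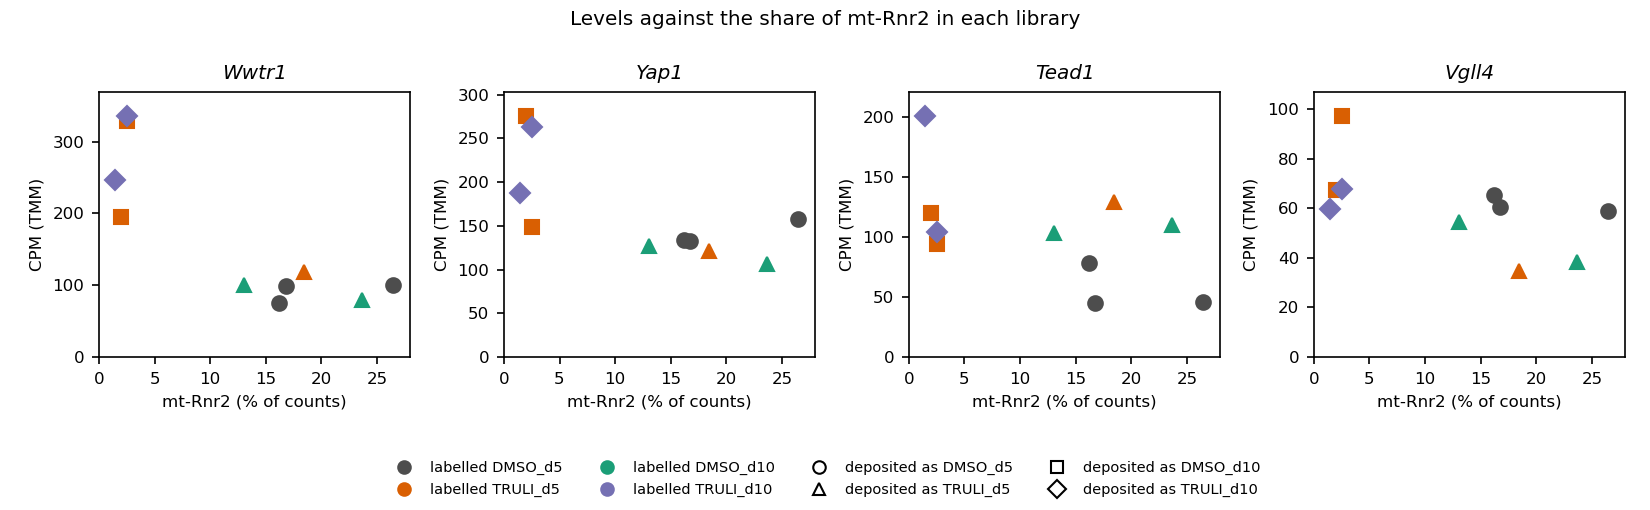
CPM (vertical axis, TMM scaling) of 4 genes against the percentage of counts from mt-Rnr2 (horizontal axis) in the 10 libraries, with color for the label and shape for the deposited name. For Wwtr1 the 4 libraries at or under 2.53% sit above the other 6, whereas the sets overlap for Yap1, Tead1 and Vgll4.

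Set against mt-Rnr2, Wwtr1 was the only one of the 8 genes whose 4 low-mt-Rnr2 libraries (195 to 336 CPM) did not overlap the other 6 (74.8 to 118 CPM). Yap1 lay at 149 to 276 CPM in these 4 and at 107 to 158 CPM in the other 6. The split was not particular to Wwtr1, since Lfng and Ywhag also lay apart between the same libraries. The share of all genes that did so was not counted. Leaving mitochondrially encoded genes out of the library totals made no Wwtr1 call appear or disappear in the 4 comparisons. The 4 libraries also held the skeletal-muscle marker Myod1, at 14.5 to 89.3 CPM against at most 0.40 CPM. The part of library composition in the Wwtr1 differences was not tested.

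The main DNA-binding partner, Tead1, behaved alike under both groupings at 5 days. Its level was 45.3, 45.8 and 78.8 CPM in DMSO_d5 and 120, 94.4 and 129 CPM in TRULI_d5, with no overlap. The log2 fold change was 1.03 ± 0.35, 2.05-fold (adjusted p = 0.332). By deposited name the TRULI libraries were at 129, 110 and 104 CPM, also above every control, and the log2 fold change was 1.03 ± 0.26 (adjusted p = 0.0605). In that grouping the replicate numbers were taken to pair the libraries, from correlations in these same data and not from a stated pairing. With the number as a block the log2 fold change was 1.07 ± 0.23 and passed (adjusted p = 0.0118). It also passed in DESeq2 (adjusted p = 0.0129), without the filter, and without DMSO_d5 replicate 3 (1.34 ± 0.25, adjusted p = 0.0371). The adjusted p was 0.199 with all 10 libraries in one fit and up to 0.270 without one library. Over all genes the block called 9.89%. The 5 libraries that either grouping places in TRULI_d5 all lay above the 3 DMSO_d5 libraries. Each grouping counts 2 of these 5 as DMSO_d10 controls. The groupings also share the DMSO_d5 libraries and TRULI_d5 replicate 3, so their likeness is not independent evidence of an effect of TRULI.

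Beyond 5 days Tead1 did not separate TRULI from DMSO. It was at 110 and 104 CPM in DMSO_d10 and at 201 and 104 CPM in TRULI_d10, with a log2 fold change of 0.53 ± 0.41 (adjusted p = 0.462), and by deposited name of 0.53 ± 0.47 (adjusted p = 0.9998). Without TRULI_d10 replicate 1 these values became -0.06 and -0.04. The DMSO_d10 libraries stood above all DMSO_d5 libraries under either grouping, by 0.92 ± 0.30 (adjusted p = 0.152) by label and 0.91 ± 0.34 (adjusted p = 0.0905) by deposited name. All 7 libraries other than DMSO_d5 thus held more Tead1 (94.4 to 201 CPM) than the 3 DMSO_d5 libraries. The DMSO_d5 libraries also held the most S100b, a gene of glial and of supporting cells, at 708 to 946 CPM against 121 to 275 CPM. The other 5 glial markers summed to 63.3 to 106 CPM in DMSO_d5 and 59.3 to 211 CPM in the other 7, which overlapped. The part of either in the Tead1 values was not tested.

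The other Tead genes were thinly covered. Tead2 was at 3.20, 1.65 and 4.97 CPM in DMSO_d5, 5.18, 7.56 and 5.27 CPM in TRULI_d5, 8.48 and 9.21 CPM in DMSO_d10 and 1.74 and 6.93 CPM in TRULI_d10, from 5 to 41 counts a library. Both TRULI_d5 by label (log2 fold change 0.87 ± 0.66, adjusted p = 0.548) and TRULI_d5 by deposited name (1.22 ± 0.53, adjusted p = 0.281) lay above DMSO_d5 without passing. Tead3 ranged from 0 to 6.96 CPM, the 0 being in TRULI_d5 replicate 2, where a count of 0 allows up to 1.08 CPM. Tead4 ranged from 4.41 to 24.7 CPM, and both its extremes were DMSO_d5 libraries, replicates 1 and 2. The lowest adjusted p of Tead3 or Tead4 in the 4 comparisons was 0.364. By deposited name Tead3 passed in DMSO across days in the fit without DMSO_d10 replicate 1.

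The makeup of the Tead pool was taken per length within each library. Tead1 made up 45.3%, 27.7% and 41.6% of the summed Tead level in DMSO_d5 and 62.6%, 72.7% and 55.2% in TRULI_d5. The libraries did not overlap, and the means were 38.2% ± 9.25 and 63.5% ± 8.78 (SD, n = 3 and 3; two-sided exact permutation p = 0.10, the smallest this design allows; 0.40 adjusted over 4 tests). Under the deposited names TRULI held 54.3% ± 2.13, again without overlap (exact permutation p = 0.10; 0.20 adjusted over 4 tests). After withdrawal the means were 53.8% ± 2.78 in DMSO_d10 and 59.9% ± 16.6 in TRULI_d10 (n = 2 and 2; exact permutation p = 1, smallest possible 0.333). By deposited name the DMSO_d10 mean was 67.7% ± 7.12, above that of TRULI_d10 (exact permutation p = 0.667).

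By counts alone Tead1 held from 61.2% of 227 Tead counts (Wilson 95% interval 54.8% to 67.3%, counting error only) in DMSO_d5 replicate 2 to 91.7% of 1258 (90.1% to 93.1%) in TRULI_d10 replicate 1. The effective length given for Tead1 ranged from 5094 to 9261 bases between libraries and that for Tead2 from 561 to 1899, against 3884 to 3945 for Yap1. The shares per length, that of Tead1 included, also carry these estimates. By counts Tead1 held 80.1%, 61.2% and 78.9% in DMSO_d5 and 83.6%, 87.0% and 89.4% in TRULI_d5. The libraries deposited as TRULI_d5 were at 89.4%, 84.2% and 80.3% by counts, so that the groups by deposited name almost touched. In TRULI_d5 replicate 3, Tead2 held 3.64% of the Tead counts and 30.9% of the pool per length. Tead4 took 52.7% of the pool in DMSO_d5 replicate 2 and 6.69% to 22.0% in the other 9 libraries.

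Wwtr1 relative to Yap1, per length, was 0.655, 0.553 and 0.490 in DMSO_d5 and 0.620, 1.92 and 0.857 in TRULI_d5. The mean log2 ratio was -0.83 ± 0.21 and 0.01 ± 0.84 (SD, n = 3 and 3; exact permutation p = 0.20; 0.40 adjusted over 4 tests). By deposited name it was -0.46 ± 0.21 with TRULI (exact permutation p = 0.10, with 0.20 adjusted). The groups did not overlap but almost touched, with the lowest TRULI ratio at 0.657 and the highest DMSO ratio at 0.655. After withdrawal the ratio was 0.657 and 0.686 in DMSO_d10 and 1.16 and 1.11 in TRULI_d10, which did not overlap, with a difference of 0.76 in the mean log2 ratio (n = 2 and 2; exact permutation p = 0.333, the smallest possible). Under the deposited names the controls were at 0.620 and 1.92 and enclosed the TRULI libraries, and the difference was 0.06. Wwtr1 exceeded Yap1 in 3 of the 10 libraries. Yap1 and Wwtr1 together stood at 1.79 to 5.64 times the summed Tead level.

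**Figure D4:**
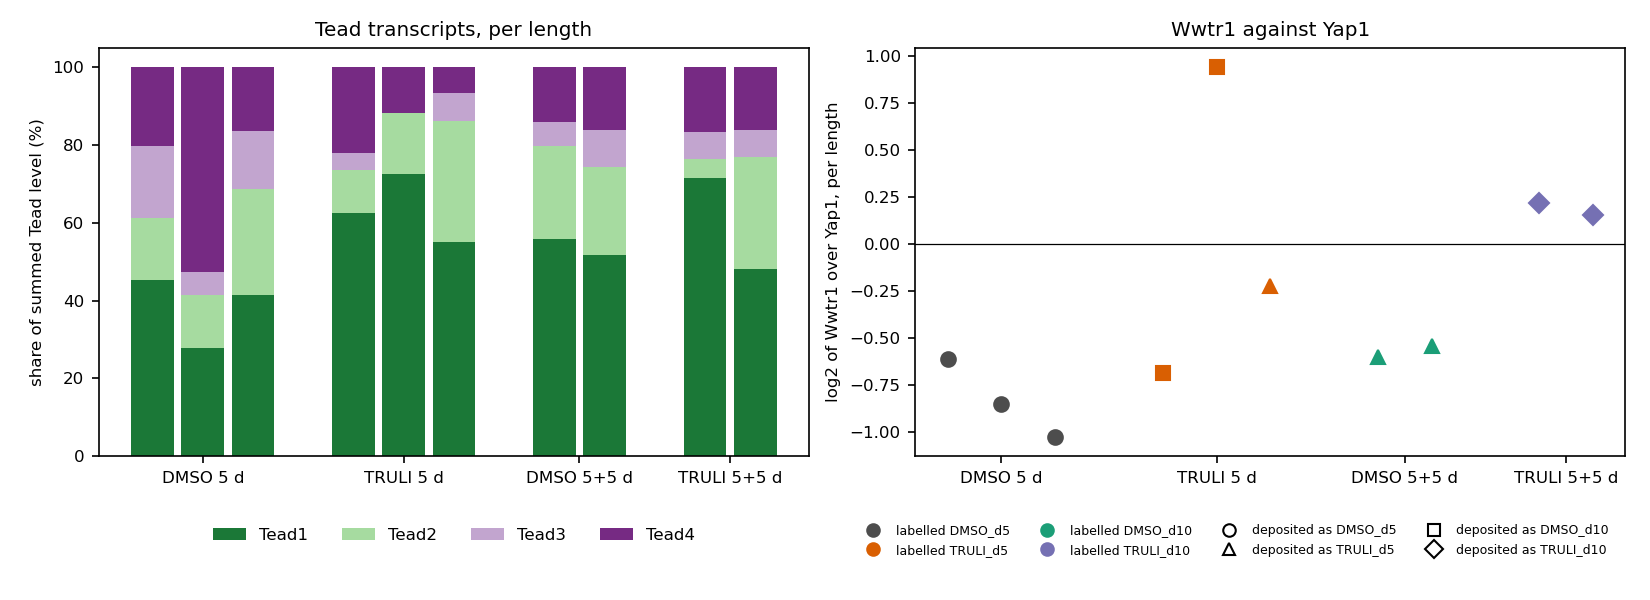
Left, share of each Tead gene in the summed Tead level per length (vertical axis, percent) in the 10 libraries (bars, replicates in order within each labelled group); right, log2 of Wwtr1 over Yap1 per length in the same libraries, with color for the label and shape for the deposited name. Tead1 holds 27.7% to 45.3% in the DMSO_d5 libraries and 48.1% to 72.7% in the other 7.

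Vgll4, which competes with Yap for Tead factors, was at 60.5, 59.0 and 65.4 CPM in DMSO_d5 and at 67.3, 97.2 and 34.5 CPM in TRULI_d5. The TRULI libraries enclosed the controls, and the log2 fold change was 0.12 ± 0.40 (adjusted p = 0.902). By deposited name TRULI_d5 was at 34.5, 38.4 and 54.6 CPM, under every control, with a log2 fold change of -0.51 ± 0.24 (adjusted p = 0.325). After withdrawal it was at 38.4 and 54.6 CPM in DMSO_d10 and 59.8 and 67.9 CPM in TRULI_d10 by label (0.46 ± 0.40, adjusted p = 0.512) and gave -0.35 ± 0.47 (adjusted p = 0.9998) by deposited name. The same 3 libraries that were lowest for Vgll4 held the Yap target Ccn2 at 482 to 714 CPM, against 2.04 to 15.6 CPM in the other 7. For Vgll4 the gap was small, 54.6 CPM against 59.0 CPM in the nearest other library. The share of all genes lowest in these 3 libraries was not counted, and a link between Vgll4 and Ccn2 was not tested.

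Vgll3 was close to absent in most libraries. It had 0, 0 and 1 counts in DMSO_d5, 0, 0 and 5 in TRULI_d5, 10 and 28 in DMSO_d10, and 109 and 0 in TRULI_d10. The 3 libraries deposited as TRULI_d5 were those with 5, 10 and 28 counts, or 1.32, 2.49 and 6.29 CPM. Over the groups by deposited name this is 43 counts against 1, a ratio of 33.5 (exact 95% interval 5.70 to 1354, counting error only). By label DMSO_d10 against DMSO_d5 gave 38 counts against 1, a ratio of 42.9 (7.25 to 1739). The 109 counts of TRULI_d10 replicate 1, or 19.0 CPM, had no match in replicate 2. Summed hair-cell markers were at 906 CPM in TRULI_d10 replicate 1 and at 154 CPM in replicate 2, and mesenchymal markers at 126 and 36.1 CPM. In the libraries with 5, 10 and 28 counts, mesenchymal markers were at 42.7, 117 and 41.3 CPM, and at 19.2 to 49.4 CPM in the 6 libraries with 0 or 1 counts, of which TRULI_d5 replicate 1 was the highest. The part of other cells in the Vgll3 counts was not tested.

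Transcripts around these genes in the pathway were counted from lists of 22 Yap-Tead target genes and 39 Hippo pathway proteins. At 5 days by label, 0 of 18 tested targets and 0 of 39 pathway genes passed (5 and 7 at an unadjusted p under 0.05), with list medians of 0.08 and 0.21 on the log2 scale against 0.05 for all genes. By deposited name 5 targets rose and 1 fell among 18 (median 0.54, against 0.03 for all genes), and 4 pathway genes rose and 2 fell among 39 (median -0.06), where 3.28% of all genes were called. The target Ccn2, a matricellular protein, was at 15.6, 8.89 and 11.7 CPM in DMSO_d5 and 714, 490 and 482 CPM in the libraries deposited as TRULI_d5, a log2 fold change of 5.57 ± 0.31 (adjusted p = 2.76e-05). Amotl2, a scaffold that retains Yap and is on both lists, rose by 1.83 ± 0.28 (adjusted p = 0.00765), and the target Crim1 fell by 1.24 ± 0.20 on the log2 scale (adjusted p = 0.0101). Ajuba, a LIM protein that restrains Lats, rose by 3.23 ± 0.31 (adjusted p = 0.00122), and its relative Limd1 fell by 1.24 ± 0.23 (adjusted p = 0.0188). Of the 8 genes, 7 were tested in that same fit and none passed, while Vgll3 was filtered for low counts. Tead1 was at an adjusted p of 0.0605 there and passed in some alternatives.

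After withdrawal by label, 2 of 18 targets fell, Ccn2, which fell by 5.65 ± 0.68, and Igfbp3, which fell by 2.62 ± 0.36 on the log2 scale (adjusted p = 0.0312 for both), and 0 rose. Among 39 pathway genes, Ajuba fell by 3.77 ± 0.47 (adjusted p = 0.0312) and Ywhag, a 14-3-3 protein of the family that binds phosphorylated Yap, rose by 1.90 ± 0.33 (adjusted p = 0.0442), where 2.07% of all genes were called. By deposited name 0 of 19 targets and 0 of 39 pathway genes passed (1 and 0 at an unadjusted p under 0.05; medians 0.05 and 0.01). Between DMSO_d10 and DMSO_d5 by label, 3 targets rose and 1 fell among 18, with Ccn2 at 5.35 ± 0.30 (adjusted p = 2.14e-05), and 2 pathway genes rose and 1 fell among 39, where 2.44% of all genes were called. By deposited name 0 targets rose and 3 fell among 18, including Ccn1, which fell by 2.00 ± 0.36 (adjusted p = 0.0118), and 5 pathway genes rose and 6 fell among 39, where 19.3% of all genes were called.

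Between TRULI_d10 and TRULI_d5 by label 0 targets and 0 pathway genes passed (1 of each at an unadjusted p under 0.05), and by deposited name 0 of 18 targets rose and 4 fell, and Ccn2 fell by 5.84 ± 0.65 (adjusted p = 0.00783), while 5 pathway genes rose and 4 fell, where 14% of all genes were called. The interaction of TRULI and day called 0 genes of either list by either grouping (at an unadjusted p under 0.05, 4 targets and 2 pathway genes by label, 5 and 3 by deposited name). Ywhag was at 538 to 790 CPM in the 4 libraries with low mt-Rnr2 and at 164 to 198 CPM in the other 6, the same split as Wwtr1.

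Over the 10 libraries, the likeness of patterns was described by Pearson's r of log2(CPM + 1) among 8484 genes with a mean of at least 10 CPM. The genes most like Wwtr1 were Gpn1 (r = 0.98), Champ1 (0.98) and Rbm39 (0.98), and Gpn1 ranged from 14.7 to 111 CPM. For Yap1 they were Slc25a3 (0.96), Vkorc1l1 (0.96) and Erbin (0.94). Tead1 was nearest to Cldn4 (0.93), Vsig10 (0.92) and Taf6 (0.91), Tead4 to Ankrd13c (0.92), Mef2c (0.87) and Slc25a20 (0.86), and Vgll4 to Sort1 (0.99), Tmprss2 (0.95) and Adssl1 (0.94). Among the genes themselves, r was 0.71 between Yap1 and Wwtr1 and 0.23 between Yap1 and Tead1. All points share their libraries and the split in mt-Rnr2, which places 4 libraries apart from 6.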

How the data were processed

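Supporting cells were sorted from cultured utricles and sequenced in 10 libraries, 1 deposited table each. STAR was used by the authors for mapping to GRCm38; the deposited expected counts per gene carry an effective length and no normalization, and the counting program is not given in the sources used here. The labels name a poly(A)-selected TruSeq library and the methods a QIAseq single-cell kit. Symbols came from GENCODE M21.

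Expected counts were rounded and compared with edgeR 4.0.16 (R 4.3.3; filterByExpr, TMM, quasi-likelihood test) each comparison fitted on its own groups, and p-values were adjusted by Benjamini-Hochberg over all genes tested; a call is an adjusted p under 0.05. DESeq2 1.42.0 was an alternative. Groups came from sample labels, with deposited names as the alternative. Printed CPM use TMM factors over all 10 libraries. Ratios and shares within a library used a two-sided exact permutation test. Counts were also simulated at a set dispersion of 0.1, with 200 well-covered genes changed 4-fold and no other difference between groups. From these edgeR recovered 182 and 130 genes for TRULI against DMSO at 5 days and after withdrawal. For the days in DMSO and in TRULI it recovered 168 and 159. The dispersion was not estimated from these libraries, so these numbers do not give the power of the tests here.

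By deposited name, the correlations of same-numbered libraries at 5 days were 0.352, 0.164 and 0.291, all over 0.1. The numbers, which come from those names, were therefore taken to pair the samples. No source used here states this pairing, and it was inferred from the same data as the tests. By label the values at 5 days were -0.141, 0.0534 and -0.182. After withdrawal they were 0.189 by label and 0.161 by deposited name. With 2 libraries a group these values are equal in size for every pair, so they cannot decide pairing there. No pair of libraries was a duplicate (chi-square per degree of freedom at least 15.3).

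All 8 genes were named, and from each list at most the 3 called genes with the lowest adjusted p in a comparison, plus the 3 genes most like each member with a mean of at least 10 CPM. The members and lists were chosen with earlier results of these data known. Reads shared by overlapping or related genes, the Tead family included, may be divided between them.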

Additional observations from a re-analysis of the deposited data

Results flagged for a closer look

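By label, Tead2 was higher in every TRULI library than in every DMSO library at 5 days (5.18 to 7.56 against 1.65 to 4.97 CPM). After withdrawal it was lower in both TRULI libraries than in both DMSO libraries (1.74 and 6.93 against 8.48 and 9.21 CPM). Some libraries of opposite groups had equal counts of Tead2. DMSO_d5 replicate 3 and TRULI_d5 replicate 3 each had 20, and DMSO_d10 replicate 1 and TRULI_d10 replicate 2 each had 34. Within these pairs the difference in CPM comes from library scaling alone. The difference between the log2 fold changes was -1.88 (SE 1.099), and the interaction test over all genes did not call it (adjusted p = 0.822). By deposited name the groups overlapped after withdrawal (1.74 and 6.93 CPM with TRULI against 5.18 and 7.56 CPM; log2 fold change -0.55, adjusted p = 0.9998). Groups held 2 or 3 libraries, too few for a test of single outlying libraries.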

How the results depend on the processing

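With the fit as reported, none of the 8 genes passed where it was tested by label, and Wwtr1 passed in both comparisons of days by deposited name. By label, the count of genes called stayed at 0 at 5 days, except in fits without one library (range 0 to 1). After withdrawal it was 1 with DESeq2, without the filter on low counts and with the replicate block, each time Wwtr1 (block: 1.70 ± 0.35, adjusted p = 0.00891), and 0 to 3 without one library; both fits that leave out a TRULI_d10 library call Vgll3, in opposite directions. For DMSO across days it was 2 without the filter (Tead1 and Vgll3), 1 with the replicate block (Tead1, adjusted p = 0.0176), 1 with protein-coding genes only and 1 without mitochondrially encoded genes (Vgll3 in both), and 1 by deposited name; for TRULI across days it was 1 by deposited name. Labelled numbers were not taken to pair the libraries at 5 days, and with 2 libraries a group pairing after withdrawal cannot be decided. The block changed no other call by label. By deposited name, the count at 5 days was 1 with DESeq2, 2 without the filter, 1 with the replicate block and 0 to 1 without one library; after withdrawal it was 1 without the filter (Vgll3). For DMSO across days it was 0 to 2 without one library, and for TRULI across days 2 with DESeq2, without the filter and with all 10 libraries in one fit, and 0 to 2 without one library. The interaction gave 0 throughout.

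Of 505 single-gene fold changes recomputed for Yap1, Wwtr1, Tead1, Tead2 and Vgll4, 452 kept direction and side of the threshold, 5 lost a call, 18 gained one and 30 changed sign. By label, Yap1 at 5 days became -0.23 by deposited name and -0.22 among libraries rich in mt-Rnr2 (chosen after the data were seen, with 1 TRULI library, so that the spread rests on DMSO_d5 alone), and -0.0228 to 0.58 without one library; Vgll4 became -0.51, -0.83 and -0.25 to 0.40. Wwtr1 in DMSO across days, at -0.01, became 0.0197 without the filter, 0.00912 with protein-coding genes only, 0.00731 without mitochondrially encoded genes, 1.51 by deposited name and -0.19 to 0.16 without one library. By deposited name Yap1 and Vgll4 became 0.58 and 0.40 in DMSO across days, and Vgll4 became -0.35 after withdrawal and 0.61 in TRULI across days. Without one library, the ranges after withdrawal were -0.0572 to 0.90 for Tead1 by label, and by deposited name -0.0448 to 0.93 for Tead1, -1.83 to 0.13 for Tead2, -0.17 to 0.59 for Wwtr1 and -0.28 to 0.60 for Yap1. In TRULI across days they were -0.13 to 0.85 for Tead1, -1.73 to 0.21 for Tead2 and -0.35 to 0.34 for Vgll4 by label and -0.0924 to 0.80 for Tead1 by deposited name. Wwtr1 at 5 days by deposited name ranged from -0.00594 to 0.28. The share of Tead1 after withdrawal, 6.07 percentage points higher with TRULI by label, became -7.79 by deposited name and -5.69 to 17.8 without one library. The causes were not tested.

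Over all genes, counts of calls moved by over 1.5 times under many alternatives: the 1 gene at 5 days by label became 0 to 646, and 0 to 2193 without one library (2193 without TRULI_d5 replicate 3), and the 253 after withdrawal became 0 to 1751, and 8 to 3154 without one library. Day-10 comparisons rest on 2 libraries a group by label, and Tead2, Tead3, Tead4 and Vgll3 on 0 to 109 counts a library.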
